A study of Homo sapiens with 4 samples.

Results

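The 5 genes described here are the neurotrophin receptors NTRK2, NTRK3 and NGFR and the neurotrophins BDNF and NTF3, read by symbol from the 36601 features counted in human enteric ganglioids. Neurotrophins are secreted proteins that keep neurons alive and guide their growth. They act through the TRK receptor tyrosine kinases, where BDNF binds TrkB (the product of NTRK2) and neurotrophin 3 (the product of NTF3) binds mainly TrkC (the product of NTRK3), and through the death-domain receptor p75 (the product of NGFR), which binds all neurotrophins and their uncleaved precursors. In the gut, TrkC and neurotrophin 3 are known for promoting the differentiation of enteric neurons and glia from neural crest, and p75 is used as a surface marker of enteric neural crest.

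Ganglioids are free-floating 3D cultures that were grown from H9, an established human embryonic stem cell line, by way of enteric neural crest, and their nuclei were read by single-nucleus RNA sequencing. Of the 4 samples, 2 were untreated controls and 2 had received PP121, which inhibits multiple receptor tyrosine kinases, at 2 µM from day 15 to day 20. Every sample was kept in the same medium with GDNF, ascorbic acid and the N2 and B27 supplements, and the protocol names no added neurotrophin. Each group held 1 sample labelled as differentiation replicate 1 and 1 labelled as differentiation replicate 2, which the deposited annotation dates to day 42 and day 38; the day and the differentiation cannot be told apart, and all samples come from a single line.

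The deposited annotation gave a class to 14812 of 25306 nuclei, between 2912 and 4587 in a sample, with a median of 6289 to 7071 UMIs per nucleus. The classes were enteric neurons (6557 nuclei), progenitor 1 (2892), progenitor 2 (3800), mesenchymal (903), epithelial (92) and a class labelled Unknown (568). Their markers followed the labels for neurons, where 11 neuronal genes summed to between 7822 and 10785 CPM (UMIs of a gene per 1000000 UMIs of the class in a sample) against at most 3025 elsewhere, and for mesenchymal nuclei, where 13 genes summed to between 4873 and 5514 CPM against at most 579 elsewhere. They did not separate progenitor 2 from the Unknown class, in which 7 progenitor genes summed to between 1914 and 2434 and between 1858 and 2361 CPM. Progenitor 1, at 649 to 934 CPM of these genes, overlapped mesenchymal (579 to 1164 CPM) and epithelial nuclei (721 to 873 CPM), so its label is not borne out by them and is used here as the deposited name. The 10 listed genes of enteric crest and glia summed to 33.2 to 68.9 CPM in neurons and to at most 72.9 CPM in any other class. In neurons SOX10 lay between 7.88 and 14.02 CPM, while RET lay between 1.19 and 1.71 CPM, S100B between 0.228 and 0.369 CPM and GFAP at most at 0.228 CPM. Any pair of samples shared 4 to 15 cell barcodes.

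The members lie on 5 chromosomes of GRCh38 (GENCODE 29): NTRK2 at chr9:84668551-85027070 on the plus strand, NTRK3 at chr15:87859751-88256768 on the minus strand, NGFR at chr17:49495293-49515017 on the plus strand, BDNF at chr11:27654893-27722058 on the minus strand and NTF3 at chr12:5432112-5521536 on the plus strand. NTRK2 has 8 and NTRK3 14 annotated coding transcripts. Counts per symbol do not separate receptors with a kinase domain from truncated ones. BDNF shares 43282 bases, among them 701 of its 7740 exonic bases, with the antisense gene BDNF-AS, and NTRK3 shares 4039 bases, none of them exonic, with NTRK3-AS1. The sources used here do not say whether counting was by strand or took in introns. Reads of BDNF and BDNF-AS, and those of NTRK3 and NTRK3-AS1, may therefore not be fully separated.

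NTRK2 was read in every class, with the highest levels in progenitor 2 and the Unknown class. In progenitor 2 its level was 580.5 and 520.0 CPM in the controls and 572.0 and 484.1 CPM with PP121 (replicates 1 and 2 in each group), a mean of 539 ± 45.4 CPM (SD, n = 4). In the Unknown class the mean was 545 ± 107 CPM, and the ranges of both classes overlapped. Neurons gave 134.8 and 95.7 CPM in the controls and 121.8 and 67.4 CPM with PP121, so that progenitor 2 stood 4.31 to 7.18 times above neurons within every sample. In progenitor 1 NTRK2 was at 125.3 and 106.9 CPM in the controls and 68.1 and 73.9 CPM with PP121, a range that overlapped that of neurons. Mesenchymal nuclei (157 ± 53.9 CPM) also overlapped neurons, and epithelial nuclei (384 ± 170 CPM) were too few, 9 to 37 in a sample, for a firm level. Classes are clusters of the same counts, so all levels by class are given as a description without a test.

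NTRK3 was highest in progenitor 2 as well, and there the ranges did not overlap those of neurons. Progenitor 2 gave 360.6 and 384.5 CPM in the controls and 292.6 and 162.8 CPM with PP121. Neurons gave 127.7 and 125.6 CPM in the controls and 146.1 and 117.0 CPM with PP121, a mean of 129 ± 12.2 CPM (SD, n = 4). Progenitor 1 lay lower, between 58.5 and 78.3 CPM, without overlap with neurons, and epithelial nuclei (128 ± 59.0 CPM) overlapped neurons and progenitor 2. The Unknown class, which had the NTRK2 level of progenitor 2, held NTRK3 at only 58.0 ± 13.0 CPM, so the receptors differed in their order of classes. Mesenchymal nuclei held 3.36 to 15.8 CPM, and after thinning every nucleus to 2000 UMIs a UMI of NTRK3 was found in 9 of 405 and 9 of 420 of the day 38 mesenchymal nuclei, or 2.22% and 2.14%, against 14.4% to 18.3% of neurons at the same depth.

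NGFR ran in another order. Its levels were 44.5, 57.9, 29.3 and 55.5 CPM in progenitor 1 and 42.6, 41.9, 27.9 and 34.5 CPM in neurons (control replicates 1 and 2, then PP121 replicates 1 and 2), and these ranges overlapped each other and that of mesenchymal nuclei (41.6 ± 13.3 CPM). In progenitor 2, the class with most NTRK3, it was at 22.2, 22.9, 15.01 and 17.3 CPM, below the neurons of every sample.

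Of the ligands, BDNF had its highest mean level in neurons, at 13.5 and 11.1 CPM in the controls and 21.0 and 12.1 CPM with PP121 (838 UMIs over 6557 nuclei). Progenitor 2 held 10.5 ± 0.738 CPM and progenitor 1 3.55 ± 1.83 CPM. Neurons were above progenitor 2 in 4 of 4 samples, but the ranges overlapped. BDNF-AS, annotated on the opposite strand, was instead higher in progenitor 2 than in neurons, at 86.4 to 91.6 CPM against 43.2 to 69.7 CPM. Like BDNF, it was lower in progenitor 1 than in both, at a mean of 17.1 CPM in the controls and 28.6 CPM with PP121.

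NTF3 was low in all classes, and its mean level fell along progenitor 1 (11.02 ± 5.76 CPM), progenitor 2 (8.12 ± 3.64 CPM) and neurons (4.65 ± 1.97 CPM), with overlap between neighbours. Mesenchymal nuclei of day 38 held 19.1 CPM in the control and 37.4 CPM with PP121. Those of day 42 held 2.80 CPM in the control, and no UMI was found with PP121, where 0 of 33 nuclei allows a share of up to 9.09% of nuclei with a UMI (3 counts of the total, counting error only, which does not limit the share that express the gene). In the thinned nuclei of day 38, NTF3 was found in 2.96% of control and 7.14% of PP121 mesenchymal nuclei (exact Clopper-Pearson 95% intervals 1.54% to 5.12% and 4.87% to 10.0%, which cover counting error only). Neurons, at 0.393% to 1.23%, had a UMI less often than the PP121 mesenchymal nuclei of day 38.

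**Figure D1:**
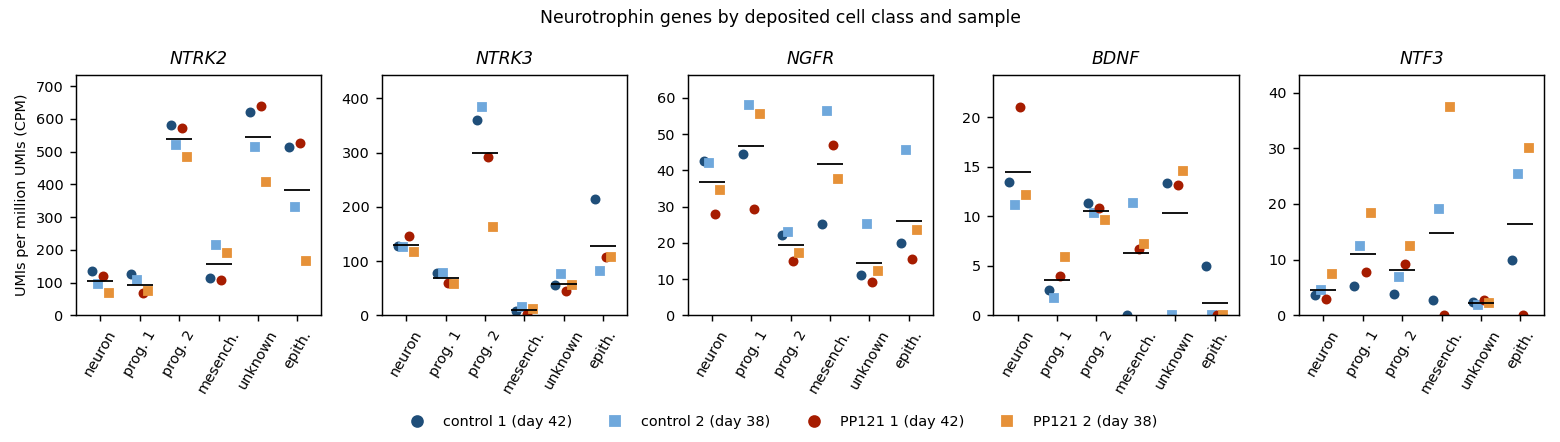
Level of each member (UMIs per 1000000 UMIs of the class, linear axis from 0) in the 6 deposited classes, with 1 point for each of the 4 samples and a bar at their mean. NTRK2 and NTRK3 are highest in progenitor 2 (NTRK2 also in the Unknown class), NGFR is lower there than in neurons, and BDNF and NTF3 stay under 40 CPM in the named neuronal, progenitor and mesenchymal classes.

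The ligand NTF4 was scarcely read, at most at 0.228 CPM in neurons. The sorting receptors that carry neurotrophins or their receptors were abundant by contrast: in neurons SORCS3 was at 124 to 165 CPM, SORT1, a partner of p75, at 77.1 to 116 CPM, and SORT1 rose to between 189 and 339 CPM in progenitor 1.

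The promoter of NTRK3 is shown because it lies inside NTRK3-AS1, the gene annotated on the other strand. That gene had the sign of NTRK3 in nitrergic and cholinergic neurons (given further on with its limit). The 250 bases before the start of NTRK3 (RefSeq, GRCh38.p14, chr15:88256740-88256989, minus strand, 5′ to 3′) hold 23 CG pairs, set in capitals, and 25.8% of 35116 promoter windows of this length hold as many. This RefSeq start differs from the GENCODE start given above, so the last bases of the window lie inside the GENCODE gene.
NTRK3: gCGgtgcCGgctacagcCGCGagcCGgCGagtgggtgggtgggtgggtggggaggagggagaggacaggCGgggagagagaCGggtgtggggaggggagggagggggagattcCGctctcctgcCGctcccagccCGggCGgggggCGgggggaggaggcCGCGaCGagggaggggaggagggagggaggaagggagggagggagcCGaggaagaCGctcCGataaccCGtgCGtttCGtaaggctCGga

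In single nuclei thinned to 2000 UMIs, 54.8% and 48.3% of the progenitor 2 nuclei had a UMI of NTRK2 in the controls, against 51.3% and 44.8% with PP121. NTRK3 was found in 39.2% and 42.8% of control nuclei of that class. Nuclei with both were counted 286 and 159 times in the controls and 240 and 104 times with PP121, which is 1.14 to 1.18 times what the product of the shares gives. Neurons showed the same ratio, 1.15 to 1.18, at lower counts of 96, 31, 72 and 17 nuclei. NTRK3 and NGFR met in neurons less often than the product, at ratios of 0.677 and 0.924 in the controls and 0.810 and 0.309 with PP121. These counts are a description, since nuclei of a sample are not replicates and vary in which molecules were caught.

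Over 18 sums of a sample and a class with at least 50 nuclei, the genes most like NTRK3 among 11571 were ST8SIA1 (Pearson r 0.952), ABAT (0.932) and FAM13C (0.929). For NTRK2 they were ADCK1 (0.934), BCL2 (0.930) and AL078459.1 (0.930), and for NGFR AC006059.1 (0.942), USP30 (0.931) and OSBPL8 (0.926). The sums share libraries and the contrast between classes, so that these correlations describe a pattern over classes. BDNF and NTF3 were too low for this comparison.

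Among neurons, NTRK3 differed widely between the deposited subtypes. In the controls it stood at 315 and 293 CPM in EN 4 (replicates 1 and 2), at 307 and 288 CPM in EN 8 and at 264 and 183 CPM in EN 5. EN 2, at 37.5 and 28.3 CPM, was lowest in both replicates, and EN 1 (56.9 and 60.3 CPM) and EN 3 (64.1 and 33.5 CPM) were also low. The PP121 samples carry subtypes named by letters, which the authors drew on control and PP121 neurons merged. There EN H held 313 and 255 CPM and EN B 24.9 and 19.3 CPM. EN E and EN D were high in replicate 1 (238 and 187 CPM) and not in replicate 2 (39.5 and 40.8 CPM), where they held 29 and 10 nuclei.

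NTRK2 ran over the control subtypes from 84.7 CPM in EN 1 to 224 CPM in EN 6 in replicate 1, and from 58.5 CPM in EN 2 to 176 CPM in EN 8 in replicate 2. NGFR was 61.9 and 51.1 CPM in EN 1, a subtype low in NTRK3, and 28.7 and 27.9 CPM in EN 4, a subtype high in it. BDNF was above 20 CPM in both control replicates only in EN 3 (23.6 and 21.8 CPM), with EN 4 next to it (18.5 and 20.8 CPM). With PP121 BDNF reached 82.5 CPM in EN D of replicate 1 (86 UMIs in 114 nuclei) and 81.7 CPM in replicate 2, there from 6 UMIs in 10 nuclei. EN C held 36.6 and 43.5 CPM, the latter from 36 nuclei. The numbered and lettered subtypes come from different clusterings and were not matched to each other here.

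**Figure D2:**
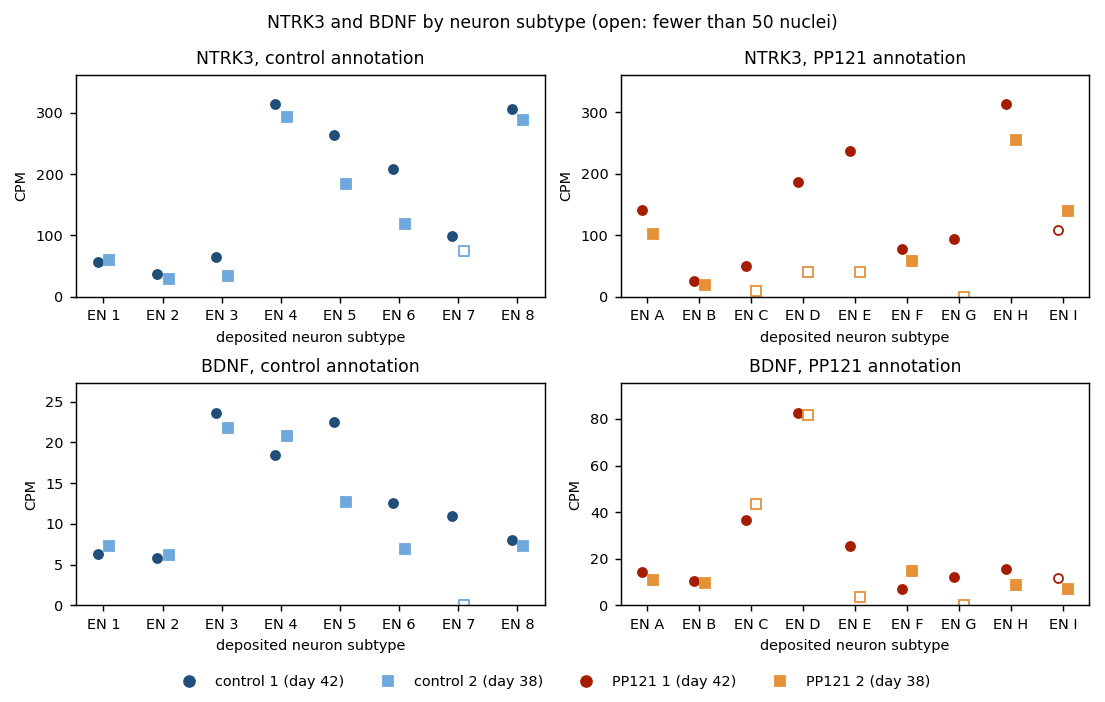
Level of NTRK3 and BDNF (CPM) in the deposited neuron subtypes, controls and PP121 in separate panels, with 1 point per replicate and open points where a subtype had fewer than 50 nuclei. NTRK3 is above 250 CPM in both replicates of EN 4, EN 8 and EN H, and BDNF is highest in EN D, where replicate 2 has 10 nuclei.

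A transmitter identity, or none, was given by the authors to 6321 neurons. They called identities from imputed values, in which every gene of a nucleus, the members included, can weigh on the call. Whether control and PP121 neurons were imputed and called together is not stated. The main comparisons of the members are therefore also given for neurons defined by a UMI of the identity's own genes. A nucleus may carry several identities, and the UMI-defined neurons are deeper (a median of 9890 against 7316.5 UMIs for the nitrergic ones). Each identity was compared with all other neurons within samples by edgeR's quasi-likelihood test over all genes, with Benjamini-Hochberg adjustment.

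Nitrergic neurons, which make nitric oxide and relax gut muscle, held more NTRK3 and less NGFR than other neurons. NTRK3 was at 233, 165, 236 and 173 CPM in nitrergic neurons (control replicates 1 and 2, PP121 replicates 1 and 2) and at 103, 118, 115 and 109 CPM in the others. Every nitrergic value lay above every other one, and the difference was 0.91 on the log2 scale (SE 0.116, adjusted p = 0.000174). NGFR was lower in 4 of 4 samples, 25.2 ± 7.77 against 38.9 ± 6.93 CPM (log2 difference -0.56, SE 0.126, adjusted p = 0.0107). These were the 2 of 5 members that passed, where 11.7% of 19027 genes passed. The NTRK3 difference was not seen in the 139 neurons with a UMI of NOS1, the gene of neuronal nitric oxide synthase, with 123 ± 39.6 against 128 ± 10.2 CPM (log2 difference -0.09, adjusted p = 0.981, where 0.955% of genes passed). Of the neurons called nitrergic, 10.2% had such a UMI. NGFR no longer passed in them either (-0.50, adjusted p = 0.805), nor without control replicate 2 (adjusted p = 0.0670) or PP121 replicate 1 (0.0594).

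In cholinergic neurons, the main excitatory neurons of the gut, NTRK3 was lower and BDNF higher. NTRK3 was at 65.95, 50.4, 58.5 and 72.9 CPM in them and at 160, 147, 183 and 120 CPM in other neurons, again without overlap (log2 difference -1.28, SE 0.115, adjusted p = 7.41e-06). BDNF was 17.7, 16.4, 29.6 and 20.1 CPM in cholinergic and 11.4, 9.69, 18.6 and 11.5 CPM in other neurons. It was higher in 4 of 4 samples, by 0.77 on the log2 scale (SE 0.128, adjusted p = 0.00139), although the ranges overlapped. Here 2 of 5 members passed, beside 11.5% of 19542 genes. In the 716 neurons with a UMI of a cholinergic gene the NTRK3 difference was smaller and still passed (-0.62, adjusted p = 0.000462, beside 2.41% of genes), and that of BDNF did not pass (0.58, adjusted p = 0.0845), at 21.1 ± 6.85 against 13.98 ± 4.86 CPM.

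GABAergic neurons had 78.8 ± 31.8 CPM of NTRK3 against 151 ± 21.6 CPM in other neurons, lower in 4 of 4 samples (log2 difference -0.86, SE 0.160, adjusted p = 0.00774). Of the NTRK3 differences that passed with the deposited calls, this was the only one lost on leaving out a sample: without control replicate 2 it was -0.77 (adjusted p = 0.0807). Of the neurons called GABAergic 75.3% had a UMI of a GABAergic gene, and the 2544 neurons with one gave -0.76 (adjusted p = 0.000822, beside 6.12% of genes). NTF3 was also lower, at 1.92 ± 0.481 against 5.76 ± 1.63 CPM (log2 difference -1.34, SE 0.263, adjusted p = 0.0103), though from 2 to 18 UMIs per sample. It did not pass with the UMI-defined neurons (-0.72, adjusted p = 0.198) or without PP121 replicate 1 (adjusted p = 0.0566). The background was 7.85% of 19974 genes.

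Catecholaminergic neurons held NTRK3 at 179 ± 16.3 CPM against 98.9 ± 19.9 CPM in the others, higher in 4 of 4 samples (log2 difference 0.86, SE 0.103, adjusted p = 0.000644). It was the 1 member of 5 that passed, beside 4.80% of 18260 genes. Neurons with a UMI of a catecholaminergic gene gave 0.58 (adjusted p = 0.0138, beside 0.598% of genes). No member passed in serotonergic neurons, where 10.7% of 19341 genes did. NTRK3 there was at 200 and 165 CPM in the controls and 110 and 81.5 CPM with PP121, above the other neurons in both controls and below them in both PP121 samples.

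For glutamatergic neurons the result turned on how they were defined. With the deposited calls NTRK2 was lower (88.1 ± 27.6 against 109 ± 30.2 CPM, log2 difference -0.33, SE 0.0871, adjusted p = 0.0217), 1 of 5 members beside 14.9% of 18972 genes, and NTRK3 did not pass (-0.21, adjusted p = 0.0668). The NTRK2 call was lost without control replicate 1 (adjusted p = 0.0526) or PP121 replicate 1 (0.124), and NTRK3 passed without PP121 replicate 1 (-0.29, adjusted p = 0.0314, beside 11.7% of genes). In the 943 neurons with a UMI of a vesicular glutamate transporter, NTRK3 was at 262, 256, 261 and 232 CPM against 112, 89.5, 113 and 68.0 CPM in the remaining neurons. That is 1.42 higher on the log2 scale (adjusted p = 2.09e-06, beside 5.53% of genes), 2.31 to 3.41 times within samples, and the highest NTRK3 level of any identity by either definition. NTRK2 by that definition was 0.31 higher (adjusted p = 0.0693). Of the deposited glutamatergic neurons 22.3% had such a UMI, and so did 10.4% of the others, where the values for NOS1 were 10.2% and 0.462%.

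**Figure D3:**
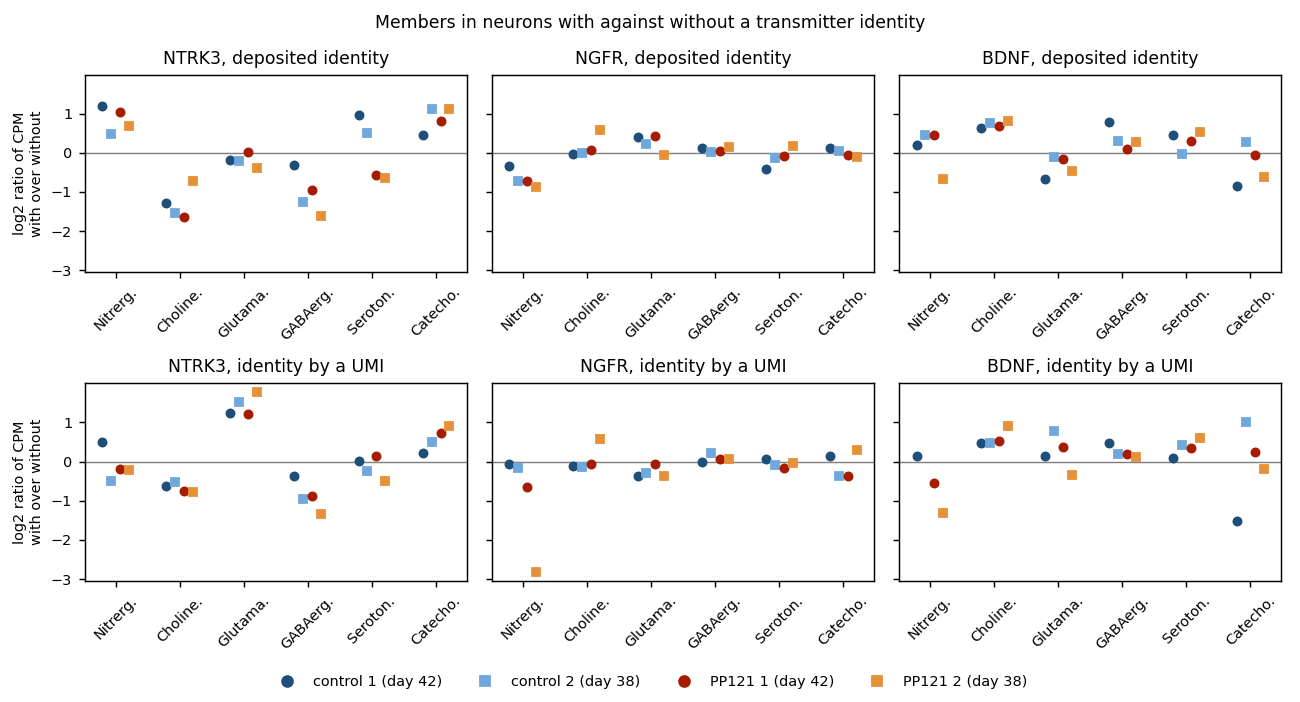
Log2 ratio of the CPM of NTRK3, NGFR and BDNF in neurons with over neurons without each transmitter identity, by the deposited calls (upper row) and by a UMI of the identity's own genes (lower row), with 1 point per sample; the ratio of BDNF in nitrergic neurons by a UMI is not drawn for control replicate 2, which had no UMI. For NTRK3 all 4 points lie below 0 in cholinergic and GABAergic neurons and above 0 in catecholaminergic neurons in both rows, while the nitrergic points lie above 0 in the upper row and on both sides of 0 in the lower row, and the glutamatergic points near 0 in the upper and above 1 in the lower row.

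Other genes of the pathway differed between the identities by the deposited calls, and their values by a UMI are not given here. By a UMI fewer of all genes passed: 0.955% for nitrergic, 2.41% for cholinergic, 6.12% for GABAergic, 5.53% for glutamatergic and 0.598% for catecholaminergic neurons. Of 7 tested sorting receptors and remaining family members, 4 passed in nitrergic neurons, beside 11.7% of all genes: SORCS3 (1.25), SORCS1 (1.14) and SORL1 (1.25) were higher and SORCS2 (-0.43) lower on the log2 scale. SORCS2 was higher in cholinergic (0.84) and GABAergic (0.81) neurons, in which SORCS1 was lower (-0.90 and -1.01). The antisense gene NTRK3-AS1 passed with the sign of NTRK3 in nitrergic (1.26, adjusted p = 0.0400) and cholinergic neurons (-1.38, adjusted p = 0.0454), from 14 to 50 UMIs in the neurons of a sample. Its reads may not be fully separated from those of NTRK3, so the shared sign is a description only. CADPS2, which primes vesicles that release neurotrophins, was higher in nitrergic (2.37, adjusted p = 0.000403) and lower in cholinergic neurons (-1.23, adjusted p = 0.0110). In glutamatergic neurons, where 14.9% of all genes passed, 5 of 11 genes that respond to neurotrophins or activity were higher, among them EGR3 (0.92) and FOS (0.53), and none was lower. Of 7 progenitor markers, 4 were lower in nitrergic, 5 in cholinergic, 5 in GABAergic and 6 in catecholaminergic neurons, 1 was higher in cholinergic neurons, and 3 were higher in glutamatergic neurons. The shares of all genes that passed were 11.7%, 11.5%, 7.85%, 4.80% and 14.9% in nitrergic, cholinergic, GABAergic, catecholaminergic and glutamatergic neurons. The part of the progenitor markers in the differences of the members was not tested.

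PP121 against control is the study's treatment comparison. No member passed in neurons, in progenitors or over all nuclei when the 4 samples were compared without regard to the replicate number, and neither did any gene (0% called of 21243, 20260 and 24123 genes by edgeR's quasi-likelihood test, with 2549, 962 and 1113 at an unadjusted p under 0.05). DESeq2 called 87, 40 and 49 genes, no member among them. Samples of 1 replicate number share a day, and with that number as a block 14.8%, 1.72% and 0.883% of the genes passed. The blocked values follow beside those without the block. Fits of progenitor 1 or 2 alone, here and for the day, were added after seeing the data. They were not refitted with DESeq2, on joint clusters or with a sample left out. P-values rest on samples of 2 numbered differentiations of 1 line. With the block few residual degrees of freedom are left, and the test takes a gene's spread largely from all genes. Blocked SE and p-values therefore do not measure the spread of that gene between samples alone. Over all nuclei a change in class shares cannot be told apart from one in level per nucleus. Control and PP121 samples carry subtypes of different clusterings. Whether their classes were drawn together is not stated, so within a class treatment may not be told apart from how labels were drawn.

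**Figure D4:**
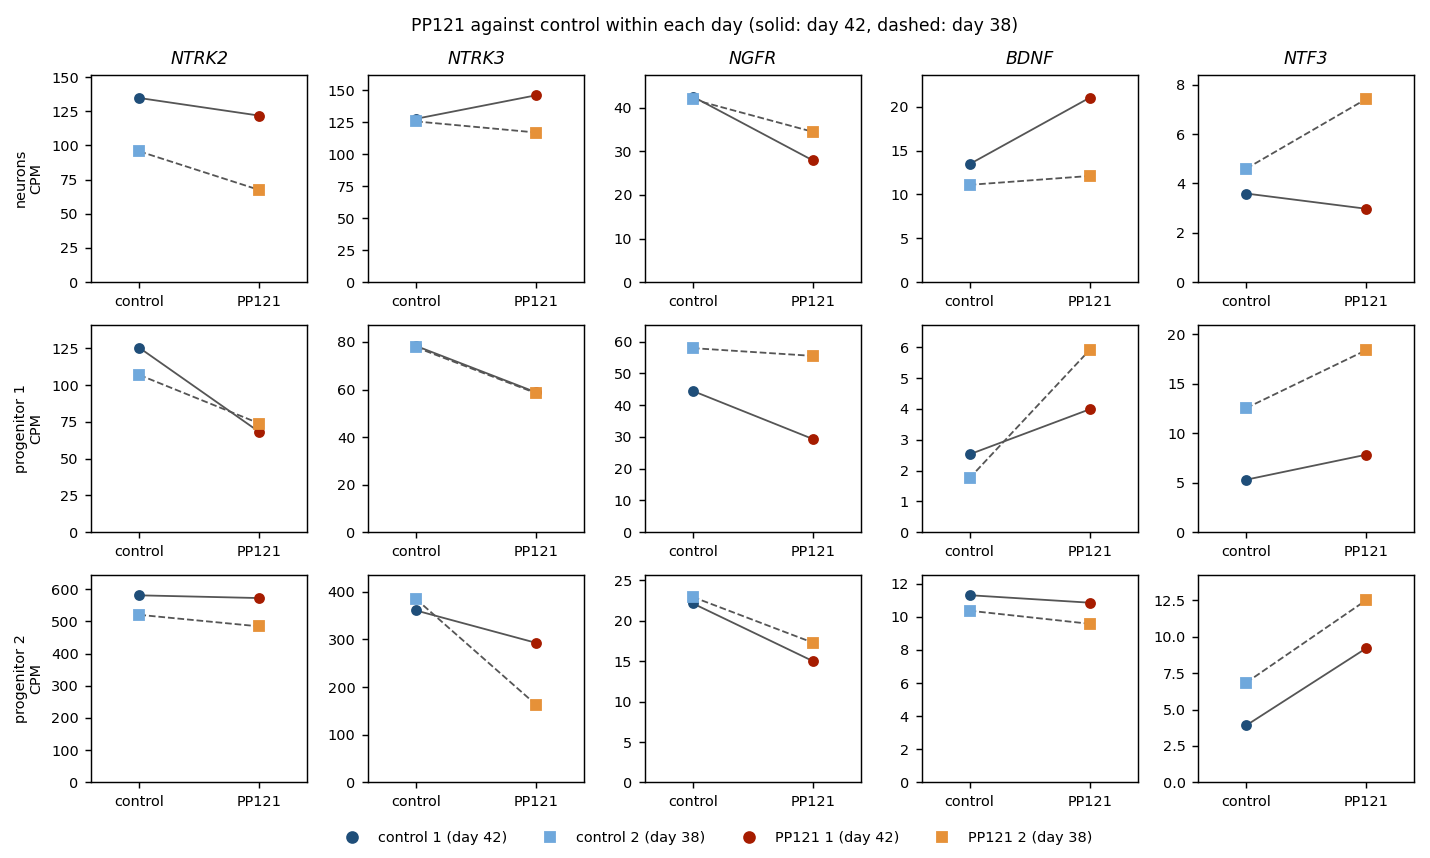
Level of each member (CPM) in control and PP121 samples of neurons, progenitor 1 and progenitor 2, with a line joining the samples of a replicate number. NGFR and NTRK2 are lower with PP121 in both replicates of every class shown, though by little for NTRK2 in progenitor 2. In both progenitor classes NTRK3 is lower and NTF3 higher in both replicates, while in neurons their replicates go opposite ways. BDNF is higher in both replicates of neurons and progenitor 1 and slightly lower in those of progenitor 2. These signs are a description.

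NTRK3 was lower with PP121 in progenitors. In progenitor 2 the controls were at 360.6 and 384.5 CPM and the PP121 samples at 292.6 and 162.8 CPM, so the groups did not overlap. The size differed between the days, -0.30 on the log2 scale on day 42 and -1.24 on day 38. Over both progenitor classes the difference was -0.77 (SE 0.220, adjusted p = 0.758) without and -0.79 (SE 0.174, adjusted p = 0.00719) with the block, and in progenitor 2 alone -0.69 (adjusted p = 0.473) and -0.73 (SE 0.129, adjusted p = 3.32e-05). The fitted value over both classes exceeds that of either class. Within days it was -0.58 on day 42, beyond progenitor 1 (-0.41) and progenitor 2 (-0.30), and -0.97 on day 38, between -0.41 and -1.24. Progenitor 1, the class lower in NTRK3, held 586 of 1741 and 608 of 1291 progenitor nuclei in the controls. With PP121 it held 1197 of 2304 and 501 of 1356. The part of class shares in the value over both classes was not tested. The share of progenitor 2 nuclei with a UMI at 2000 UMIs was 39.2% and 42.8% in the controls and 36.0% and 23.4% with PP121. That is 11.3 percentage points lower. The exact two-sided permutation test gave p = 0.333, and 2 samples per group allow none lower. In progenitor 1 NTRK3 gave 78.3 and 77.8 CPM against 58.8 and 58.5 CPM, and did not pass with the block (-0.44, adjusted p = 0.261).

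In neurons NTRK3 showed no such difference (0.09, SE 0.136, adjusted p = 0.813). The progenitor difference minus that of neurons was -0.87 (SE 0.133, unadjusted p = 6.85e-05), which did not pass over 21787 genes (adjusted p = 0.119, with no gene called and 2123 at an unadjusted p under 0.05). It passed by DESeq2 (-0.88, adjusted p = 0.00783, beside 0.239% of genes) and without the filter on low counts (-0.86, adjusted p = 1.76e-05, beside 1.58% of genes). With clusters drawn jointly over all samples it was -0.58 (adjusted p = 0.710).

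NTRK2 was lower in progenitor 1, with controls at 125.3 and 106.9 CPM and PP121 samples at 68.1 and 73.9 CPM, and with no overlap. The log2 difference was -0.73 (SE 0.235, adjusted p = 1) without and -0.74 (SE 0.181, adjusted p = 0.00291) with the block, where 3.69% of 16083 genes passed. Over both progenitor classes, the planned fit, NTRK2 did not pass with the block (-0.19, SE 0.166, adjusted p = 0.906). In progenitor 2 NTRK2 differed by -0.03 with the block (SE 0.108, adjusted p = 0.935), with a level above 480 CPM in every sample. In neurons it was lower on both days (-0.15 and -0.51) and did not pass (-0.25, adjusted p = 0.737; with the block -0.28, adjusted p = 0.0722), except without PP121 replicate 1 (-0.70, adjusted p = 0.0358, beside 6.56% of genes) and with the block on joint clusters (-0.40, adjusted p = 0.0212, beside 6.06% of genes).

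NGFR was lower in PP121 neurons, with 42.6 and 41.9 CPM in the controls and 27.9 and 34.5 CPM with the inhibitor. The groups did not overlap, and the log2 difference was -0.40 (SE 0.160, adjusted p = 0.404) without and -0.42 (SE 0.124, adjusted p = 0.0224) with the block, the only member of 5 that passed in neurons, beside 14.8% of all genes. It was not called with the block on joint clusters (-0.33, adjusted p = 0.159). The deposited neurons fell differently into those clusters, with 17.6% and 26.5% of them in joint progenitor clusters in the controls and 8.42% and 12.4% with PP121. NGFR was also lower in progenitor 2 on both days, by values that did not pass (with the block -0.46, adjusted p = 0.153). In progenitor 1 NGFR was lower by -0.60 on day 42 and -0.062 on day 38, and did not pass with the block (-0.35, adjusted p = 0.522).

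BDNF was 0.47 higher in PP121 neurons with the block, short of the threshold (SE 0.169, adjusted p = 0.0624), and its antisense gene BDNF-AS was 0.42 higher and passed (adjusted p = 0.0256). NTF3 in progenitor 2 went from 3.92 and 6.85 CPM in the controls to 9.21 and 12.5 CPM with PP121, without overlap (1.07, SE 0.353, adjusted p = 0.443 without and SE 0.277, adjusted p = 0.00705 with the block, where 6.71% of 18885 genes passed). Over both progenitor classes it did not pass with the block (0.79, adjusted p = 0.148). In progenitor 1 NTF3 was 0.56 higher on day 42 and 0.55 on day 38, and did not pass with the block (0.53, adjusted p = 0.549). The shares of progenitor 2 nuclei with an NTF3 UMI were 0.697%, 1.33%, 1.36% and 1.41%. Mesenchymal markers went both ways. In progenitor 2 their sum was 281 and 365 CPM in the controls and 348 and 423 CPM with PP121, so the groups overlapped. Among the 13 listed markers COL11A1 (1.19) and COL5A2 (0.73) were higher and LAMA4 (-0.97) lower with the block, beside 6.71% of all genes called. Their part in the NTF3 difference was not tested.

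With the block, 5 of 17 TRK adaptor and signalling genes rose in PP121 neurons and none fell, beside 14.8% of all genes called in either direction, at a median over the list of 0.22 against -0.01 over all genes on the log2 scale. They included SHC3 (0.55), an adaptor of TRK receptors in neurons, and NCK2 (0.50). Of 14 partners of p75, a share near that of all genes passed: 3 fell and none rose, namely BEX1 (-0.63), BEX3 (-0.61) and MAGEH1 (-0.67), at a median of -0.24. Sorting receptors and the remaining family members went both ways at a median of -0.01, with SORCS1 up by 1.06, SORCS3 by 0.30 and SORCS2 by 0.29, and SORL1 (-0.84) and SORT1 (-0.43) down. In both progenitor classes together SORCS3 (1.23) and SHC3 (1.05) were higher, and the other genes of these 2 lists did not pass. None of these genes passed without the block.

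The comparison of replicate 1, dated day 42, with replicate 2, dated day 38, was fitted with treatment as a covariate. As with the block, its SE and p-values take a gene's spread largely from all genes. In neurons NTRK2 was higher on day 42 in controls (134.8 against 95.7 CPM) and with PP121 (121.8 against 67.4 CPM), by 0.61 on the log2 scale (SE 0.103, adjusted p = 0.000178). NTF3 was lower on day 42, by -0.36 in controls and -1.32 with PP121, together -0.89 (SE 0.274, adjusted p = 0.0362). These were 2 of 5 members, beside 9.49% of 21243 genes. BDNF was 0.48 higher and did not pass (adjusted p = 0.0782). Without the treatment term neither call held, and no gene passed. The NTF3 call was also lost by DESeq2 (adjusted p = 0.608), with at least 10 counts in every sum (0.0555) and on joint clusters (0.0554).

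In progenitors NTF3 was the 1 member that passed, -1.02 on day 42 (SE 0.261, adjusted p = 0.0197), beside 2.99% of 20260 genes. The call was lost by DESeq2 (adjusted p = 0.333), without the top 5% of nuclei by UMIs (0.0522) and without the treatment term (0.414). In progenitor 1 it was at 5.31 and 7.83 CPM on day 42 and 12.5 and 18.4 CPM on day 38 (-1.39, SE 0.328, adjusted p = 0.000613), and NGFR was lower there too, at 44.5 and 29.3 against 57.9 and 55.5 CPM (-0.80, SE 0.211, adjusted p = 0.00253), where 14.6% of 16083 genes passed. In progenitor 2 no member passed (4.81% of 18885 genes did).

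Mesenchymal markers went with the day in the same direction as NTF3. Summed over 13 genes they were at 152 and 164 CPM in day 42 neurons and 200 and 230 CPM in day 38 neurons, and in progenitor 1 at 169 and 190 against 223 and 304 CPM. Of these genes 6 of 13 were lower on day 42 in neurons, beside 9.49% of all genes called, and 5 of 12 in progenitors, beside 2.99%, with COL3A1 down by -2.42 and -2.93, and none was higher. Mesenchymal nuclei themselves numbered 40 and 33 on day 42 and 408 and 422 on day 38, and on day 38 they held more NTF3 than the neurons and progenitors of the same sample. The part of mesenchymal RNA in the day difference of NTF3 was not tested.

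**Figure D5:**
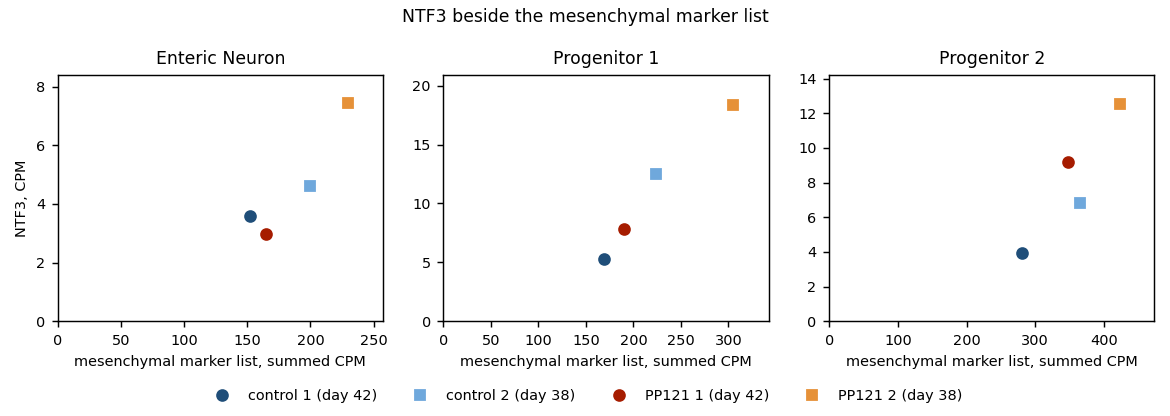
NTF3 (CPM, vertical axis) against the summed level of the 13 mesenchymal markers (CPM, horizontal axis) in neurons, progenitor 1 and progenitor 2, with 1 point per sample. In neurons and progenitor 1 both day 38 samples (squares) have a higher marker sum and more NTF3 than both day 42 samples (circles), and in progenitor 2 both PP121 samples have more NTF3 than both controls.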

How the data were processed

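Nuclei of 4 ganglioid samples were sequenced with the 10x 3′ v3.1 chemistry. The study's methods name kallisto and bustools, and the submitters' processing notes name Cell Ranger, for the reads (build GRCh38). The authors separated hashed samples and filtered nuclei in Seurat (version 4.0.4) and deposited UMI counts per gene and nucleus with class, subtype, identity and day. Samples took their group from the labels, which differ from a sample column of the annotation for the controls. Nuclei without a class were left out. Doublets were not called here, and leaving out the top 5% of nuclei by UMIs was an alternative.

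Counts were summed per sample and class (CPM is per 1000000 UMIs of that sum), with 23348045 to 34123759 UMIs per sample, and tested with edgeR 4.0.16 (R 4.3.3; quasi-likelihood, TMM, filterByExpr, adjusted p under 0.05). Alternatives were DESeq2 1.42.0, no filter, at least 10 counts in every sum, clusters drawn jointly over all samples (scanpy 1.11.5), each sample left out, and, added after seeing the data, progenitor 1 or 2 alone. Differences are log2 and SE is the log2 difference over the root of F. Shares are percent of nuclei after thinning to 2000 UMIs, from the deposited counts. Same-numbered samples share a day, and their deviations from group means correlated (0.472 in neurons, 0.337 in progenitors, 0.589 over all nuclei). Besides the members, genes of the hand-made lists that passed were named, at most 5 per list. Members and lists were chosen with earlier results of these data known. Code was tested on simulated data. Sequence is from RefSeq (4 of 5 members have a promoter window). Some genes of the family are not reported here.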

Additional observations from a re-analysis of the deposited data

Results flagged for a closer look

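For BDNF the sign of the PP121 minus control difference was opposite in different classes in both replicates, though BDNF passed in no class (edgeR adjusted p with the block 0.0624 in neurons, 0.337 in progenitor 1 and 0.954 in progenitor 2). PP121 minus control, on the log2 scale, was 0.64 and 0.13 in neurons (replicates 1 and 2) and 0.66 and 1.75 in progenitor 1, against -0.059 and -0.11 in progenitor 2. This difference was not tested for the single classes, and progenitor 1 held 63 UMIs of BDNF in all. Over both progenitor classes against neurons it was -0.42 (SE 0.320, edgeR adjusted p = 0.706).

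NTRK3 in serotonergic against other neurons had opposite signs by treatment: the log2 ratio was 0.97 and 0.50 in the controls and -0.56 and -0.64 with PP121. By a UMI of the serotonergic genes the CPM were 130 against 128 and 108 against 128 in the controls and 155 against 140 and 83.3 against 117 with PP121, with no such split. NGFR in catecholaminergic against other neurons was 0.11 and 0.042 in the controls and -0.057 and -0.11 with PP121. Neither difference between the treatments was tested. Control and PP121 subtypes come from different clusterings. Whether identities were also called separately is not stated, so treatment may not be told apart from how identities were called.

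Nuclei without a class, which entered only an alternative of the comparison over all nuclei and which are shallow (medians of 666 to 822.5 UMIs), also held the members, at 224 CPM for NTRK2, 138 for NTRK3, 34.2 for NGFR, 11.4 for BDNF and 7.16 for NTF3 over the 4 samples.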

How the results depend on the processing

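The replicate block was the setting that mattered most for PP121. With it 1 member and 3152 genes passed in neurons, 1 member and 349 genes in progenitors and 213 genes over all nuclei, where none passed without it, and its values stand beside the results. With the block and joint clusters 1 member and 1264 genes passed in neurons (NTRK2 in place of NGFR) and 2 members and 726 genes in progenitors (NTRK3, and NTF3 at 0.92, adjusted p = 0.0120). With the block, progenitor 1 alone gave 1 member and 593 genes and progenitor 2 alone 2 members and 1267 genes. Without the block, DESeq2 called 87, 40 and 49 genes in neurons, progenitors and all nuclei, no filter 69, 270 and 1, and leaving out a sample 0 to 1402, 0 to 168 and 0 to 8, with 0 to 1 members in neurons. For the interaction, DESeq2 called 1 member and 52 genes and no filter 1 member and 514 genes. The block could not be added to the interaction or the day fits, which hold the sample or are the day.

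For the day in neurons, 0 members and 0 genes passed without the treatment term, 1 member by DESeq2 (453 genes), 1 with at least 10 counts in every sum and 1 on joint clusters (1278 genes). In progenitors 0 members passed without that term (0 genes), 0 by DESeq2 (169 genes), 0 without the top 5% of UMIs, 2 in progenitor 1 (2350 genes) and 0 in progenitor 2, and joint clusters called 1124 genes. With a sample left out the day fits had no residual degrees of freedom and gave values only.

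Identities defined by a UMI called 0, 1 and 1 members for nitrergic, cholinergic and GABAergic neurons and 178, 451, 997, 9 and 109 genes for nitrergic, cholinergic, glutamatergic, serotonergic and catecholaminergic neurons. The sign of NTRK3 changed to -0.091 in nitrergic neurons, a value that did not pass, and to 1.42 in glutamatergic neurons, which passed. That of NTRK2 changed to 0.31 in glutamatergic neurons, which did not pass. The cause was not tested. Against neurons with no identity, 1 member passed for nitrergic neurons. DESeq2 called 1499 cholinergic, 1368 glutamatergic, 1197 serotonergic and 513 catecholaminergic genes. No filter called 2 members for glutamatergic neurons and 2395 GABAergic, 3213 serotonergic and 1669 catecholaminergic genes, and at least 10 counts in every sum 1 member for GABAergic neurons, where NTF3 was no longer tested. Leaving out a sample gave 1 to 2 members and 1243 to 2256 genes (nitrergic), 1062 to 2413 genes (cholinergic), 0 to 1 members and 1196 to 2464 genes (glutamatergic), 1 to 2 members and 733 to 1595 genes (GABAergic), 140 to 2586 genes (serotonergic) and 226 to 1165 genes (catecholaminergic).

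The PP121 minus control difference in the share of nuclei with a UMI, in percentage points, moved with the depth used. Thinned to 1000 UMIs it was -2.99 (NTRK2), -2.10 (NTRK3) and 0.508 (BDNF) in progenitor 1, -1.64 (NGFR) and 0.0055 (NTF3) in neurons and -0.813 (NGFR) in progenitor 2. At 4000 UMIs it was -10.4 (NTRK2), -3.90 (NTRK3), 0.653 (BDNF) and 1.79 (NTF3) in progenitor 1, -3.74 (NGFR) in neurons, and -0.248 (NGFR) and 1.84 (NTF3) in progenitor 2. Without thinning it was -9.47 (NTRK2), -5.31 (NGFR) and 1.67 (BDNF) in neurons, -10.1 (NTRK2), -6.69 (NTRK3), -5.25 (NGFR) and 1.03 (BDNF) in progenitor 1, and -19.2 (NTRK3), -4.28 (NGFR) and 2.54 (NTF3) in progenitor 2. Leaving out a sample turned the sign of the share difference of NTRK3 in neurons (-0.668 to 2.66) and of NGFR (-3.06 to 1.17) and NTF3 (-0.790 to 1.17) in progenitor 1. Depth limits BDNF and NTF3 most, with 63 to 838 and 182 to 234 UMIs over all neurons or progenitors of a class.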

Other observations

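Among the listed genes of the pathway, partners of p75 were lower in serotonergic than in other neurons for 4 of 14 genes and higher for none, beside 10.7% of all genes called: BEX3 (-0.53), BEX1 (-0.52), RIPK2 (-0.61) and PRDM4 (-0.39), all on the log2 scale and by edgeR's quasi-likelihood test over all genes. In that comparison 140 genes passed without control replicate 1, and 9 with the UMI-defined neurons. BDNF-AS was 0.41 higher in the same neurons (adjusted p = 0.0477). By the deposited calls catecholaminergic neurons had more SHC2 (0.54), an adaptor of TRK receptors, more BEX3 (0.41) and more CPE (0.51), a sorting enzyme of the regulated secretory pathway. In that comparison 4.80% of all genes were called. With PP121 and the replicate block, EGR1 and EGR3, immediate early genes, were higher in neurons (0.42 and 1.02) and in progenitor 2 (0.62 and 0.69). The block called 14.8% of all genes in neurons and 6.71% in progenitor 2. PCSK6, a proprotein convertase, was 0.76 higher in PP121 neurons with the block (adjusted p = 0.00181), and no gene passed there without it. On day 42 against day 38, neurons held more VGF (1.06), a secreted protein that neurotrophins induce, and less CADPS2 (-0.81), beside 9.49% of all genes called.

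Of 10 sensory neuron markers, which could mark TRK-bearing neurons of another lineage, the defining POU4F1 and ISL1 lay at most at 2.51 and 2.16 CPM in neurons of any sample, and SCN10A at most at 0.800 CPM. The whole list summed to 32.0 to 70.4 CPM in neurons, where SCN9A (8.91 to 14.97 CPM), RUNX1 (8.48 to 11.5 CPM) and TAC1 (4.27 to 34.8 CPM) led, and to 103 to 555 CPM in mesenchymal nuclei, where PIEZO2 reached 498 CPM. Between identities, by the deposited calls, the list held 1 higher and 0 lower in nitrergic neurons (SCN9A, 1.90), 0 and 2 in cholinergic, 0 and 3 in GABAergic, 0 and 1 in serotonergic, 1 and 0 in glutamatergic (TAC1, 1.19) and 1 and 0 in catecholaminergic neurons (TAC1, 2.37). The shares of all genes called were 11.7%, 11.5%, 7.85%, 10.7%, 14.9% and 4.80% in the same order. From 10 genes these counts are not read as a result about the list.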
